A study of Mus musculus with 4 samples.

Results

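The mitochondrial ribosomal protein genes are the nuclear genes whose products build the ribosome inside mitochondria. Members were the protein-coding genes with a symbol that starts with Mrpl or Mrps followed by a digit, and they numbered 78 of the 55573 genes in the table, 21900 of which were protein-coding. By the place of the protein in the mammalian mitochondrial ribosome, 51 members belong to the large subunit and 26 to the small subunit. Mrps30 and Mrps18a have small subunit symbols but sit in the large subunit. Mrps36 is a subunit of the oxoglutarate dehydrogenase complex rather than of the ribosome and was placed in neither.

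Footprints, the pieces of mRNA that a ribosome shields from nuclease, were sequenced (Ribo-seq) from primary mouse myoblasts, which grow out of muscle stem cells in culture, to ask which mRNAs depend on the translation factor eIF5A. Cells from 3-week-old mice were grown with 10% FBS and 10 µg/ml FGF to day 2, and ribosomes were stopped with 100 µg/ml cycloheximide. There were 2 WT libraries and 2 KO-labelled libraries. The study gives the KO mice as Pax7 CreERT2/+;eIF5A f/f, in which a tamoxifen-dependent Cre expressed from Pax7 deletes eIF5A, and the WT mice of the myoblast experiments as littermates. WT controls appear elsewhere in the study as Pax7 CreERT2/+ and as Pax7 +/+;eIF5A f/f, and which of these the libraries came from is not given in the sources used here. The labels do not say whether 2 libraries of a group came from separate animals or cultures, so p-values measure the spread between these libraries, which may be technical.

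Eif5a itself, on chromosome 11, did not follow the KO label. Its RPKM was 34.9 and 65.2 in WT and 60.3 and 59.4 in the KO-labelled libraries, from 50, 73, 130 and 114 reads, and the groups overlapped (log2 difference 0.32 ± 0.48 (SE), limma adjusted p = 0.839; -0.12 without WT replicate 1). Myod1, a transcription factor of myoblasts, had 140 and 117 RPKM in WT and 48.6 and 79.8 in the KO-labelled libraries, without overlap. The study reports a successful knockout of eIF5A in muscle stem cells, by RT-PCR and immunostaining. It also reports a lower Myod level in the Ribo-seq of KO cells. The deposited values are per gene and do not show which exons the reads fell on. Because the targeted gene did not separate the groups, the second group is called the KO-labelled libraries throughout. RPKM is reads per kilobase of gene length and per scaled library size. The libraries held 642429 to 704006 gene-assigned reads, of which 41.5% and 33.9% fell on protein-coding genes in WT and 65.4% and 59.2% in the KO-labelled libraries. Mitochondrial 12S and 16S rRNAs held 102075 and 151699 reads in WT replicate 1, and 81637 and 111847 in WT replicate 2. They held 29918 and 75984 in KO replicate 1, and 65547 and 54814 in KO replicate 2. Of 11 myoblast markers, 8 were over 3 reads in every library and none was at 0 in all. Myod1, Myog, Des, Chrna1, Pax7 and Myf5 were lower in both KO-labelled libraries. Vcam1 was higher in both, and Sdc4, Itga7, Cdh2 and Cdh15 overlapped. Myog had 91.0 RPKM (82 reads) in WT replicate 1 but 4.26 (3 reads) in WT replicate 2. The summed RPKM of the 11 markers was 315 to 433 in WT and 213 to 238 in the KO-labelled libraries. The 10 fibroblast markers summed to 328 to 518 and 380 to 823, the 7 endothelial markers to 155 to 170 and 173 to 195, and the 7 immune markers to 33.4 to 42.3 and 32.3 to 37.7, with Itgam at 0 in all. The part of these markers in the results below was not tested. In bulk samples, fewer cells that use a gene and fewer footprints per cell cannot be told apart.

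Mitochondria keep a small genome that encodes a few subunits of the respiratory chain, and they translate it on a ribosome of their own. That ribosome descends from a bacterial ribosome. Its rRNAs, 12S and 16S, come from the mitochondrial genome, whereas its proteins are encoded in the nucleus, made by cytosolic ribosomes and imported. The footprints described here are therefore those of cytosolic ribosomes on these mRNAs. A footprint level depends on the amount of an mRNA and on the ribosomes on each copy. No mRNA levels were used here, so these cannot be told apart. Some of the proteins have bacterial counterparts and the rest exist in mitochondrial ribosomes alone. The large subunit carries the peptidyl transferase centre and the small subunit decodes the mRNA.

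eIF5A is known to help ribosomes through runs of prolines, so the coding sequences were searched for runs of 3 or more proline codons. Such a run was present in 8 of 78 members (10.3%), beside 20.1% of all protein-coding genes with a coding sequence. Among genes that entered the test (below) the shares were 10.7% and 25.8%, and the coding sequences of the members were shorter, with a median of 588 bases beside 1377. Of these runs, 7 are shown with their surroundings, 30 coding bases each from the longest GENCODE vM21 coding sequence (GRCm38), with the proline codons of the run in capitals and any other proline codon in lower case, since such runs are what eIF5A is known for.
Mrpl38, chr11:116135276-116135305, minus strand, exon 3: attgggctaCCCCCACCCagagtcagtcgg
Mrpl44, chr1:79776283-79777858, plus strand, spliced from exons 1 and 2: ctacgctgcCCGCCGCCGCCAgtgcgacgc
Mrpl10, chr11:97044662-97044691, plus strand, exon 2: agatgcctgCCACCTCCTCCCaagcccccc
Mrps18b, chr17:35910730-35910759, minus strand, exon 7: gaaagtggcCCGCCACCTgagtcgatgcca
Mrps30, chr13:118386839-118386868, minus strand, exon 1: gcgctgtcgCCGCCGCCGCCCtcgctcgac
Mrpl19, chr6:81965742-81965771, minus strand, exon 1: gggttcaagCCACCGCCGaaacctgtcatc
Mrpl51, chr6:125192542-125192571, plus strand, exon 2: ctcactcttCCACCTCCCaaagtggttgat

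All 8 members entered the test, and 7 of them (87.5%) had a higher mean log2 level in the KO-labelled libraries. So did 46 of the 67 tested members without a run (68.7%) and 53.1% of protein-coding genes tested. The median log2 difference was 0.58 in the 8 members with a run, against 0.23 in the 67 without. Whether the 8 and the 67 differed was not tested, and other genes with a run were not compared.

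Footprints on the members were sparse. The median member had 36 reads summed over the 4 libraries and the deepest, Mrpl38, had 152. A level of 3 reads or fewer was treated as not distinguishable from 0, and 52 of 78 members exceeded this floor in WT replicate 1, 61 in WT replicate 2 and 69 in each KO-labelled library. Mrpl53, a large subunit protein, had no read in any library, a count that allows up to 3 reads in each, and Mrps33, a small subunit protein, had 1, 1, 2 and 1. Differences in members of few reads were therefore hard to detect at this depth.

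The ranking of the members depended on the length that reads were divided by. The deposited gene length was 1.27 to 37.6 times the length of the coding sequence, the highest ratio being that of Mrpl33. If the reads lie in the coding sequence, RPKM understates the footprint density of members with long untranslated or alternative exons. Where reads lie within a gene is not given by the deposited values. By mean RPKM over the 4 libraries the median member stood at 5.01, with the 10th and 90th percentiles at 1.84 and 14.2, and Mrpl2 was highest at 42.6. By reads per kilobase of coding sequence the median was 22.3, the percentiles 9.88 and 47.8, and Mrpl52 was highest at 89.6, a rank it owed to the KO-labelled libraries. By the mean of the WT libraries alone Mrpl33 was highest at 91.5 and Mrpl52 ranked 22. Mrps17 went from rank 49 by RPKM to rank 2 and Mrpl33 from rank 71 to rank 3, while Mrpl2 went from rank 1 to rank 6. Spearman's rho between the 2 rankings was 0.56 over 78 members, from the same reads divided by different lengths. Levels of different members are therefore compared below per kilobase of coding sequence, and each member between groups by RPKM.

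**Figure D1:**
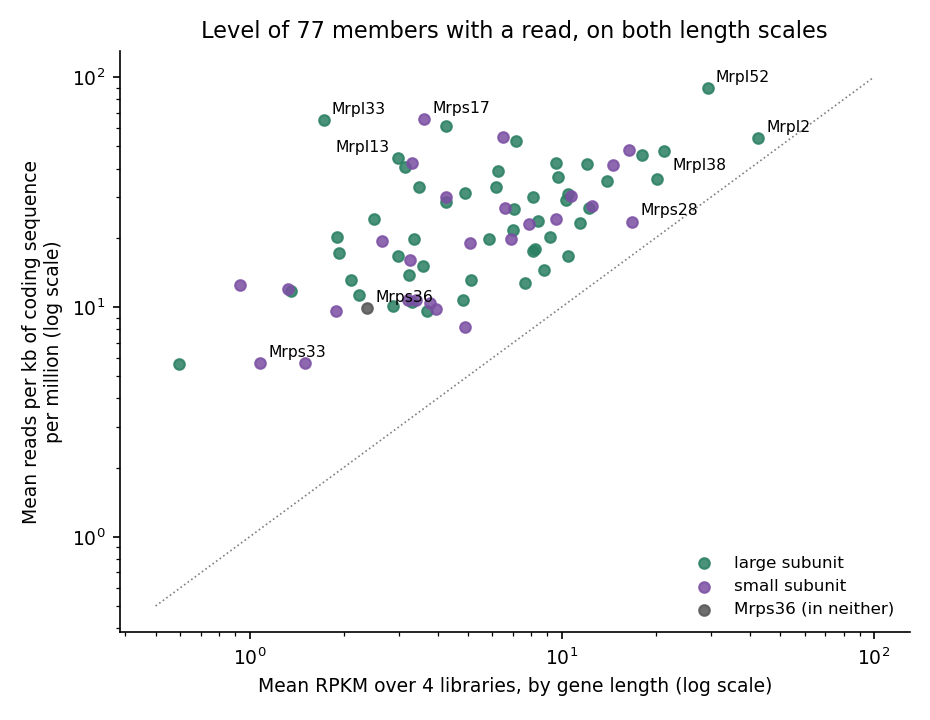
Mean RPKM by deposited gene length (x axis, log scale) against mean reads per kilobase of coding sequence, with the same library scaling (y axis, log scale) for the 77 members with a read, each point 1 gene, with equality as a dotted line. Mrpl33 and Mrps17 lie far above the line at a low RPKM, whereas Mrpl2, with the highest RPKM of 42.6, lies close to it.

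On the coding scale the large subunit stood at a median of 13.1 and 24.4 reads per kilobase, with the library scaling of the RPKM, in WT and 21.6 and 29.0 in the KO-labelled libraries. The small subunit stood at 9.08, 16.1, 21.6 and 17.7. The large subunit median was higher in 3 of 4 libraries and nearly equal in KO replicate 1. By RPKM, the medians of the large subunit (3.60, 6.00, 5.45 and 6.88) overlapped between the groups, and those of the small subunit (1.82, 4.00, 4.07 and 5.11) did not, although WT replicate 2 and KO replicate 1 differed by less than the 2 libraries of either group.

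All members together took 0.191% of the protein-coding reads in WT replicate 1, 0.281% in WT replicate 2, 0.248% in KO replicate 1 and 0.322% in KO replicate 2. The 95% Wilson intervals were 0.175% to 0.208%, 0.259% to 0.304%, 0.234% to 0.263% and 0.305% to 0.340%, and they cover counting error only, because the library protocol names no molecular identifiers. The groups overlapped, since WT replicate 2 lay above KO replicate 1, and the libraries of a group differed by more than their counting error. The summed RPKM was 485 ± 176 in WT and 633 ± 98.9 in the KO-labelled libraries (SD, n = 2 each), 1.31 times higher and within the spread. Of the reads on ribosomal members, the large subunit took 74.5%, 68.0%, 68.3% and 75.2%, in the same order. WT and KO-labelled libraries lay at both ends of this range, and a shift between the subunits was not detectable.

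**Figure D2:**
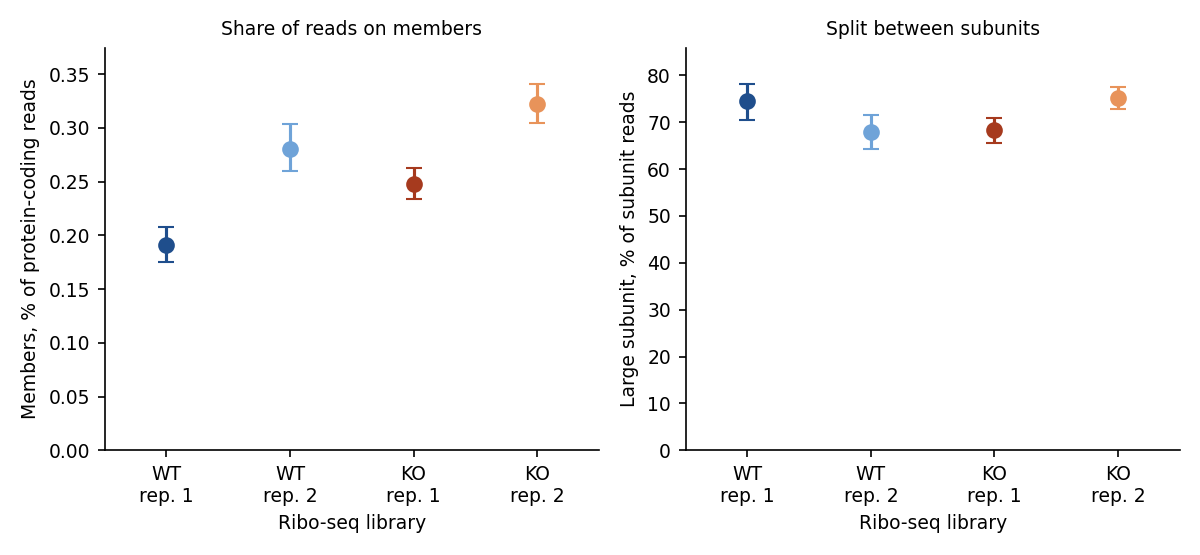
Share of protein-coding reads that fell on members (left, %) and share of the subunit reads that fell on the large subunit (right, %) in each Ribo-seq library, with 95% Wilson intervals as bars. In both panels the WT and KO libraries interleave, from 0.191% to 0.322% on the left and 68.0% to 75.2% on the right.

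The members were next compared one at a time with limma on log2(RPKM + 1), a scale that understates the change of low genes. Of 78 members, 75 had a mean RPKM of at least 1 and entered the test. None passed an adjusted p of 0.05, a threshold passed by 12 of the 11363 genes tested (0.106%), none of which was protein-coding. The smallest adjusted p of a member was 0.518, and 9 members had an unadjusted p under 0.05, of which 8 of 75 had a higher and 1 a lower level in the KO-labelled libraries, beside 2.94% and 3.04% of protein-coding genes. With voom on the recovered reads no member passed either (7 at an unadjusted p under 0.05, smallest adjusted p = 0.0849). In 1 of the alternatives a member passed, Mrpl52, as given below. An exact permutation test of 2 libraries against 2 cannot give a p under 0.333.

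The tested members lay mostly above 0. The median log2 difference was 0.24 (interquartile range -0.12 to 0.83), beside 0.05 over the 9877 protein-coding genes tested, and 53 of 75 members (70.7%) were above 0, beside 53.1% of protein-coding genes. The groups did not overlap in 25 members that were higher in both KO-labelled libraries (33.3%) and in 9 that were lower (12%), where the background was 22.4% and 19.3%. They overlapped in the other 41. The members' median was 0.58 with a pseudocount of 0.1 and 0.50 with voom, beside 0.08 and 0.05 for protein-coding genes. Scaling to total reads in place of the deposited scaling moved the median of all genes by 0.47, and put the members at 0.78 beside 0.53 for protein-coding genes, with 88.0% above 0 beside 77.5%. The large subunit (49 tested, median 0.26, 37 above 0) and the small subunit (25 tested, median 0.23, 16 above 0) lay close together. Setting the 9 members that were at or under the floor in a whole group to the bound that the floor allows left the median at 0.24.

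The members with bacterial counterparts (43 tested) had a median of 0.46 with 32 above 0, and those classed as specific to mitochondrial ribosomes (30 tested, with the S18 paralogs Mrps18a and Mrps18b among them) a median of 0.23 with 20 above 0. The interquartile ranges, -0.04 to 0.99 and -0.13 to 0.72, overlapped over most of their width.

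**Figure D3:**
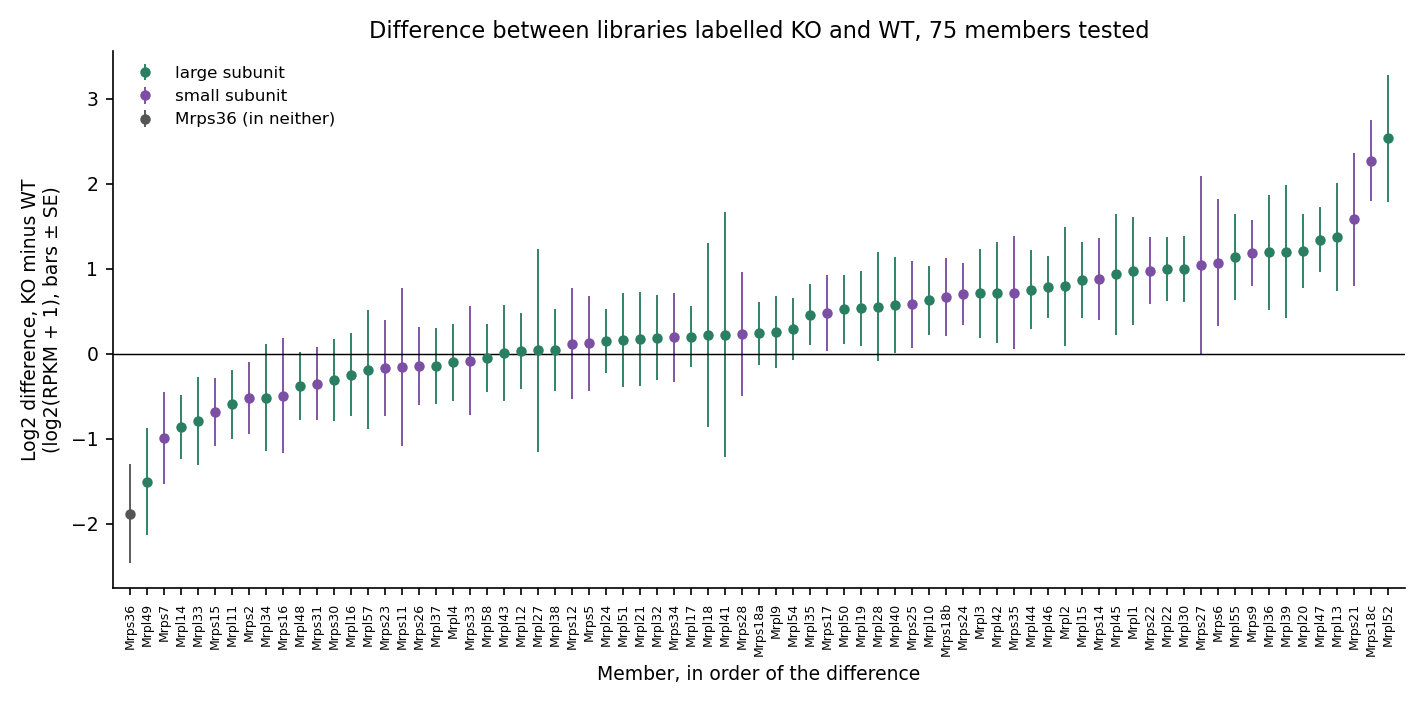
Log2 difference of each of the 75 tested members (KO-labelled libraries minus WT, on log2(RPKM + 1)) with its SE as a bar, in increasing order and coloured by subunit. Large and small subunit proteins are mixed along the order, from Mrps36 at -1.88 to Mrpl52 at 2.54, and 53 points lie above 0.

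**Figure D4:**
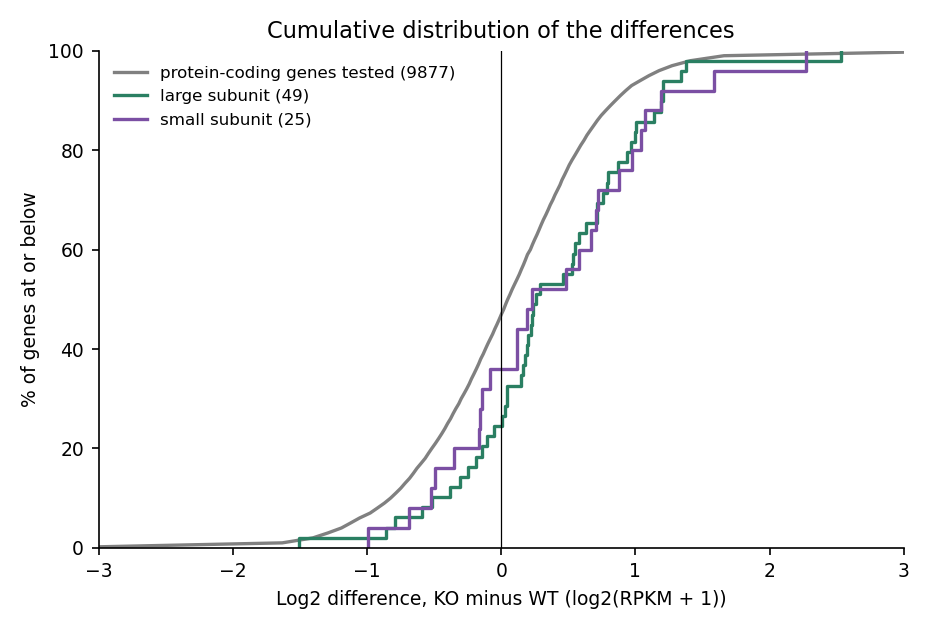
Percentage of genes (y axis) at or below each log2 difference (x axis, KO-labelled libraries minus WT) for 49 large subunit proteins, 25 small subunit proteins and 9877 protein-coding genes tested. Both subunit curves run to the right of the protein-coding curve over most of the range and cross each other, with medians of 0.26, 0.23 and 0.05.

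WT replicate 1 stood apart from the other libraries. It held the lowest of the 4 RPKM values in 42 of 75 members (56.0%), beside 32.3% of protein-coding genes, and KO replicate 2 held the highest in 34 members (45.3%), beside 21.7%. Spearman's rho between the log2 levels of the 75 members was 0.45 between the WT libraries, 0.80 between the KO-labelled libraries and 0.71 between WT replicate 2 and KO replicate 1, over genes that share the depth of each library. Without WT replicate 1 the median of the members was 0.14, 44 members were above 0 and the small subunit median was -0.18, beside 0.25 for the large subunit. Without WT replicate 2 it was 0.54, without KO replicate 1 0.53 and without KO replicate 2 0.20. The sign of the small subunit median thus depended on WT replicate 1.

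A further description used at least 2-fold with an unadjusted p under 0.05, which the study applied to its RNA-seq. Higher in the KO-labelled libraries were 6 members (8%), namely Mrpl52, Mrps18c, Mrpl47, Mrpl20, Mrps9 and Mrpl30, beside 2.72% of protein-coding genes and 2.67% of all genes tested. Lower was Mrps36 alone, beside 2.84% and 4.29%. With KO replicate 1 or KO replicate 2 left out, no member met it on the higher side, and 0.82% and 1.18% of protein-coding genes did, so that a count of 0 lies near the background. The number was 12 without WT replicate 2 and 6 without WT replicate 1, where 6.72% and 3.16% of protein-coding genes met it. Scaling to total reads gave 21 higher and 0 lower, beside 15.4% and 0.476% of protein-coding genes under that scaling. A count free of any variance model, with the lowest RPKM + 1 of one group at least 2 times the highest of the other, gave 4 higher (Mrpl52, Mrps18c, Mrpl47 and Mrps9) and 1 lower (Mrps36), where the background was 0.982% and 1.11%. With a library left out the separation is easier to reach for every gene. The count was 18 higher and 2 lower without WT replicate 2, beside 8.99% and 6.89% of protein-coding genes, and 7 and 5 without WT replicate 1, beside 4.62% and 3.83%. It was 6 and 3 without KO replicate 1, beside 2.74% and 3.17%, and 5 and 2 without KO replicate 2, beside 3.7% and 5.54%.

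Mrpl52, a large subunit protein without a bacterial counterpart, had the highest log2 difference of all members on the log2(RPKM + 1) scale. It lies on chromosome 14 from 54426909 to 54429756 on the plus strand. Its RPKM was 2.99 and 17.2 in WT and 45.7 and 51.4 in the KO-labelled libraries, from 2, 9, 46 and 46 reads. The KO-labelled libraries were close to each other and both above WT, and the WT libraries lay far apart. The log2 difference was 2.54 ± 0.74 (SE; 95% interval 0.71 to 4.37, limma adjusted p = 0.650). In the limma fit with the trend on GC content and length removed and the replicate number as a block it was called (adjusted p = 0.0165), and over the other alternatives the adjusted p was 0.0849 to 0.944. On the coding scale its mean was 30.9 in WT and 148 in the KO-labelled libraries. With 1 library left out its log2 difference was 1.44 to 3.63.

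Mrpl47, a large subunit protein of the uL29 family near the tunnel exit, had the most even libraries of this group, with an RPKM of 1.50 and 1.44 in WT and 5.49 and 5.04 in the KO-labelled libraries. Its log2 difference was 1.34 ± 0.38, from 4, 3, 22 and 18 reads. Mrpl47 overlaps Actl6a and Ndufb5, which lie on the other strand, and whether counting used the strand is not given in the sources used here. Mrpl20, which binds the 16S rRNA, stood at 2.99, 6.38, 11.9 and 11.2 RPKM (log2 difference 1.21 ± 0.44). Mrpl30 stood at 3.09, 1.97, 5.47 and 6.52 (log2 difference 1.00 ± 0.39). For both, the lowest KO-labelled library lay above the highest WT library. None passed the adjusted threshold (limma adjusted p = 0.637, 0.672 and 0.672 for Mrpl47, Mrpl20 and Mrpl30).

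Mrpl13 and Mrpl39, both of the large subunit, were far lower in WT replicate 1 than in WT replicate 2. Mrpl13 had 0.21, 2.67, 3.75 and 5.30 RPKM (log2 difference 1.38 ± 0.63) and Mrpl39 had 2.62, 17.6, 18.7 and 17.1 (log2 difference 1.20 ± 0.78). In Mrpl39 the groups overlapped and WT replicate 2 lay between the KO-labelled libraries. In Mrpl13 they did not, but WT replicate 1 rested on 1 read. With 1 library left out the log2 difference was 0.57 to 2.18 in Mrpl13 and 0.023 to 2.38 in Mrpl39.

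Mrps9, a small subunit protein whose bacterial counterpart touches the tRNA in the P site, had 1.73, 1.47, 5.36 and 4.51 RPKM, from 6, 4, 28 and 21 reads. The groups were separated and the libraries of each lay close together (log2 difference 1.19 ± 0.39, limma adjusted p = 0.660). The 3 paralogs of the bacterial S18 protein, which occupy different places in the mitochondrial ribosome, had unequal differences. Mrps18c, the small subunit paralog that takes the bacterial place, had 1, 2, 13 and 17 reads and an RPKM of 1.54, 3.95, 13.3 and 19.6. Neither WT library exceeded 3 reads, and the level in the KO-labelled libraries was at least 3.12-fold higher, computed against 3 reads per library (log2 difference 2.28 ± 0.48, limma adjusted p = 0.518, the smallest of all members). Mrps18b, also of the small subunit, had 1.59, 4.06, 4.75 and 4.74 RPKM (log2 difference 0.67 ± 0.46). Mrps18a, of the large subunit, had 4.94, 6.33, 5.98 and 7.72 with overlapping groups (log2 difference 0.24 ± 0.37, 95% interval -0.68 to 1.16). On the coding scale Mrps18a and Mrps18c were alike in the KO-labelled libraries (37.5 and 48.4 against 33.4 and 49.1) and apart in WT (31.0 and 39.7 against 3.87 and 9.90). Whether the paralogs differed from each other in the change between groups was not tested.

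**Figure D5:**
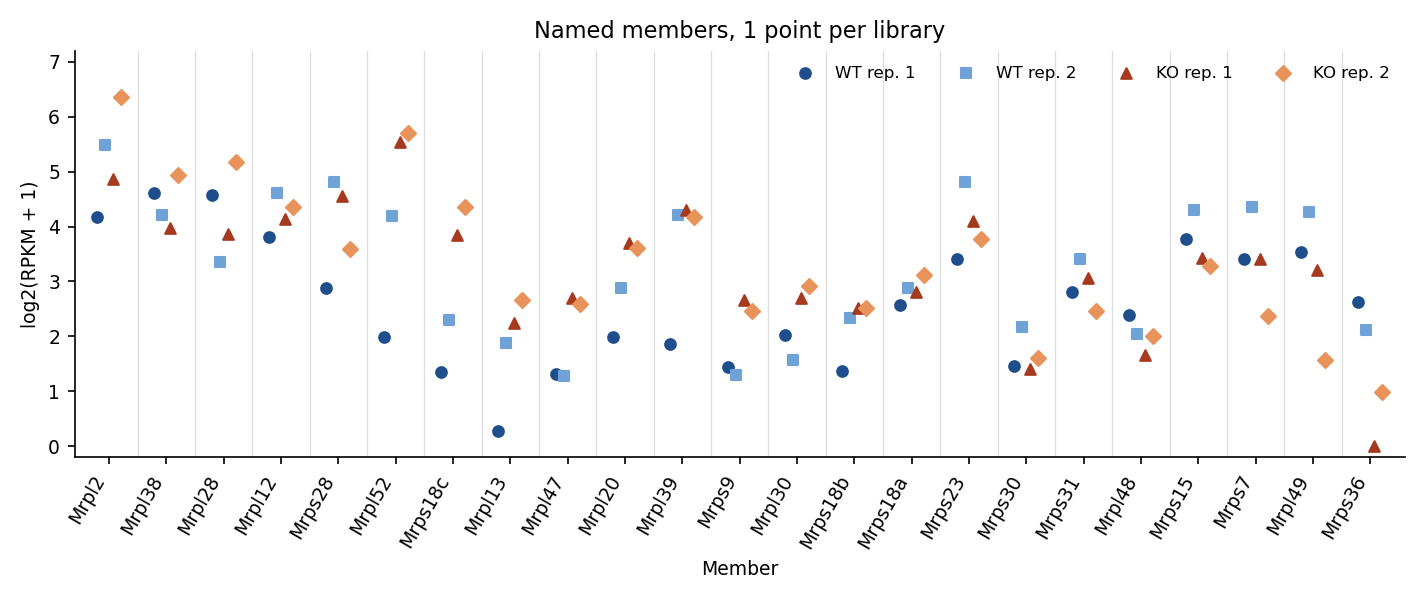
Level of 23 named members as log2(RPKM + 1), 1 point per library, with WT in blue and the KO-labelled libraries in red and orange. The KO-labelled libraries lie above both WT libraries in Mrpl52, Mrps18c, Mrpl47, Mrpl20, Mrps9 and Mrpl30, and WT replicate 1 lies far below WT replicate 2 in Mrpl52, Mrpl13 and Mrpl39.

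The promoters of some members held letter patterns that the symbol rule did not use. Of 78 members, 69 had a promoter in the RefSeq table (GRCm38.p6, 250 bases before to 50 after the start site), and CCGGAAG, the core motif of ETS factors such as GABP, was found on either strand in 26 of them (37.7%), beside 9.93% of all genes with such promoters. The motif of NRF1, GCGCA then any base then GCGC, was found on either strand in 13 (18.8%), beside 5.19%. CCAAT (39.1% beside 41.1%) and the E-box CACGTG (7.25% beside 8.09%) stood near their background. The background genes were not matched to the members for base composition or expression. ETS and NRF1 factors are known regulators of nuclear genes for mitochondria, and a match is a description of the letters and not evidence of a bound site. The ETS motif was present in 16 of 45 large and 10 of 23 small subunit promoters. The matches in Mrpl52 and in the 3 S18 paralogs are shown because their levels are described above, with the motif in capitals and up to 10 bases on each side, read on the strand of the gene.
Mrpl52, chr14:54426852-54426878, plus strand: aagatgtcggCTTCCGGttttcccggc
Mrpl52, chr14:54426901-54426927, plus strand: gccacgcccaCTTCCGGttcccttgct
Mrps18a, chr17:46110968-46110994, plus strand: cacccctgctCCGGAAGcggaagtgca
Mrps18b, chr17:35916391-35916407, minus strand: cgcagtcgctCTTCCGG
Mrps18c, chr5:100798593-100798619, plus strand: ggtcacgtgaCTTCCGGcccgggaagc
All 3 paralogs held the motif, whatever their difference. It began 26 bases before the RefSeq start site in Mrps18a, 156 bases before it in Mrps18c and 44 bases after it in Mrps18b.

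Of the 75 tested members, 22 lay below 0. Mrps36, the member outside the ribosome, had 4, 2, 0 and 1 reads and an RPKM of 5.21, 3.33, 0.00 and 0.97 (log2 difference -1.88 ± 0.58, limma adjusted p = 0.660). WT replicate 1 was the sole library above the floor of 3 reads, so no fold bound is given. Among ribosomal members with at least 40 reads, Mrpl49, a large subunit protein without a bacterial counterpart, had the lowest log2 difference, with 10.6 and 18.1 RPKM in WT against 8.23 and 1.98 (log2 difference -1.51 ± 0.63, limma adjusted p = 0.675). The groups did not overlap, and the KO-labelled libraries differed from each other by more than KO replicate 1 differed from WT replicate 1.

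Mrps7, which sits in the head of the small subunit, had 9.61, 19.5, 9.58 and 4.18 RPKM (log2 difference -0.99 ± 0.54), so that WT replicate 1 and KO replicate 1 were nearly equal. Mrps15, another small subunit protein with a bacterial counterpart, had 12.7, 18.8, 9.77 and 8.78 (log2 difference -0.68 ± 0.40). Mrpl48 (4.27, 3.12, 2.16 and 3.04; log2 difference -0.38 ± 0.40) came next among members with at least 40 reads. In these 3 the groups did not overlap, by a narrow margin in Mrps7 and Mrpl48. In Mrps31 (-0.35 ± 0.43) and Mrps23 (-0.17 ± 0.56) they overlapped. The 4 small subunit proteins named here and Mrpl48 had intervals that included 0, as did Mrpl49, and scaling to total reads turned Mrpl48, Mrps31 and Mrps23 above 0.

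Of the 5 members with the highest level on the coding scale, Mrpl52 is described above and the other 4, named after their values were seen, had no difference past the threshold (limma). Mrps17 had 3.83, 1.96, 3.40 and 5.34 RPKM with overlapping groups (log2 difference 0.48 ± 0.45). In Mrpl33 the RPKM of 2.26, 2.61, 1.35 and 0.68 was lower in both KO-labelled libraries (-0.79 ± 0.52), from 10, 9, 9 and 4 reads. Mrpl17 (4.14, 3.63, 4.35 and 4.88; 0.20 ± 0.36) and Mrps14 (3.56, 4.56, 12.5 and 5.32; 0.88 ± 0.48) were higher in both, by narrow margins.

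The 6 members with the highest mean RPKM, a ranking that depends on the deposited gene length, were also named, and besides Mrpl52 their groups overlapped. Mrpl2, next to the peptidyl transferase centre, had 17.0 and 43.5 RPKM in WT and 28.3 and 81.5 in the KO-labelled libraries (log2 difference 0.79 ± 0.70). Mrpl38 had 23.4, 17.5, 14.7 and 29.6 (0.05 ± 0.49) and Mrpl28 22.8, 9.23, 13.6 and 35.0 (0.55 ± 0.64). In each of these the KO-labelled libraries lay far apart, with replicate 2 above replicate 1. Mrpl12, the stalk protein that recruits translation factors, had 13.0, 23.6, 16.6 and 19.4 (0.03 ± 0.45, 95% interval -1.07 to 1.13). Mrps28 had 6.36, 27.1, 22.5 and 11.1 (0.23 ± 0.73). Mrpl12, Mrpl38, Mrpl28 and Mrps28 turned below 0 with some library left out. Mrps30, the large subunit protein with a small subunit symbol, also overlapped at 1.74, 3.50, 1.65 and 2.04 (-0.31 ± 0.48).

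A group of 5 mitochondrial ribosomal proteins whose symbols the rule does not match had a median log2 difference of 0.42, with 3 above 0 and none past the adjusted threshold. Chchd1, a small subunit protein, had 7.30, 37.4, 57.0 and 64.0 RPKM (log2 difference 1.78 ± 0.76), with WT replicate 1 far below the rest as in Mrpl52. With 1 library left out its log2 difference was 0.68 to 2.89. Aurkaip1, also of the small subunit, had 21.6, 34.9, 44.3 and 42.1 (0.63 ± 0.44). In both the KO-labelled libraries lay above WT. Ptcd3, an RNA-binding protein of the small subunit, stood at 0.42 ± 0.42, Dap3, its GTP-binding protein, at -0.05 ± 0.47, and Gadd45gip1 of the large subunit at -0.02 ± 0.52, and these 3 overlapped.

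Of 41 factors of mitochondrial translation and ribosome assembly, 32 entered the test. Their median log2 difference was 0.31 with 22 above 0, beside 0.24 and 53 of 75 for the members. None passed the adjusted threshold (limma), and 4 (12.5%) were higher and 1 (3.12%) lower at 2-fold with an unadjusted p under 0.05, beside 2.72% and 2.84% of protein-coding genes. Lrpprc, which stabilises mitochondrial mRNAs, was the deepest of them with 13, 13, 78 and 38 reads and 2.54, 3.24, 10.1 and 5.53 RPKM (log2 difference 1.14 ± 0.42, limma adjusted p = 0.672). The other 4 were picked after their values were seen. Of these, Taco1, an activator of translation, and Mrm3 and Mrm2, methyltransferases of the 16S rRNA, had 21, 21 and 16 reads over all libraries and at most 2 in either WT library. Computed against 3 reads per library, their level in the KO-labelled libraries was at least 1.83-fold, 1.98-fold and 1.57-fold higher. Eral1, which binds the 12S rRNA during small subunit assembly, was on the lower side (log2 difference -1.15), from 6, 9, 6 and 3 reads. Among factors with at least 40 reads, Fastkd2, which acts on the 16S rRNA, stood at 1.38 ± 0.67 with no read in WT replicate 2, and the elongation factor Gfm1 at 0.91 ± 0.45. The elongation factor Tufm, with 9.37, 5.99, 7.78 and 6.41 RPKM, was the sole factor of that depth below 0 (-0.08 ± 0.40), and its groups overlapped.

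The products that this ribosome makes and the cytosolic ribosome that makes its proteins gave the nearest comparison. The 76 cytosolic ribosomal proteins had a median log2 difference of -0.08 with 34 above 0, which turned to 0.50 when scaled to total reads and to 0.17 without KO replicate 1. Their reads per member read were 8.52 and 7.74 in WT and 5.05 and 5.63 in the KO-labelled libraries, without overlap between the groups, a ratio within each library that does not depend on its scaling. The 9 of 13 mitochondrially encoded proteins that entered the test were all below 0, with a median of -1.26 (-0.65 when scaled to total reads). The median was -0.65 without KO replicate 1, -1.87 without KO replicate 2, -1.61 without WT replicate 1 and -0.86 without WT replicate 2, and 1 of them lay above 0 without KO replicate 1 or without WT replicate 2. Whether reads on the mRNAs of these proteins were footprints of mitochondrial ribosomes was not tested. The 2 mitochondrial rRNAs are not translated and their reads cannot be read as footprints. The RPKM of 16S over that of 12S was 0.897 and 0.827 in WT and 1.53 and 0.505 in the KO-labelled libraries, which lay on both sides of WT.

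The difference of a member moved with the base composition of its coding sequence. Spearman's rho between the log2 difference and coding GC content was -0.28 over the 75 members and -0.36 over the 9877 protein-coding genes, which share the same 4 libraries. In 3 sets of 25 members by GC content, the median log2 difference was 0.72 in the lowest set (41.6% to 51.3% GC), 0.26 in the middle set and 0.12 in the highest set (56.0% to 65.6%). Removing the trend on GC content and length from each library left the median of the members at 0.34, beside 0.04 for protein-coding genes. The part of base composition in the difference of single members was not tested further. Of the 78 members, 25 overlap another protein-coding gene, and in the 51 tested members that overlap none the median was 0.29.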

How the data were processed

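The data were 4 Ribo-seq libraries of primary mouse myoblasts, grouped by the labels as 2 WT and 2 eIF5A knockout. Per the study's methods, the authors digested lysates with RNase I, selected fragments on a gel, sequenced single-end reads, removed rRNA and tRNA reads, aligned to GRCm38 (mm10) with TopHat2 and used HTSeq for counting over genes. Cycloheximide treatment is given with different durations in the labels and the methods. The handling of multiply mapped reads and of strand is not given in the sources used here. The authors deposited RPKM, by a gene length given beside it. RPKM times gene length gave whole reads for 100% of values (tolerance 0.01), with denominators of 602863, 471136, 906990 and 807705 reads for WT replicates 1 and 2 and KO replicates 1 and 2, which are scaled library sizes and not the totals, so that they cannot show a change common to most genes. Totals were 648386, 642429, 704006 and 650210 reads, and 3 reads on a gene of 1 kb equalled 4.98, 6.37, 3.31 and 3.71 RPKM.

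Genes were compared by limma 3.58.1 (R 4.3.3; linear fit and moderated statistics with a mean-variance trend) on log2(RPKM + 1) with group as the only term, where the mean RPKM reached 1. Tests were two-sided, with Benjamini-Hochberg adjustment over all genes tested and a threshold of 0.05, and the fit was tested on simulated data. Lists were described by counts and medians without a test. Members and lists were chosen with earlier results of these data known. Named were the 6 members of the highest mean RPKM, the 6 largest log2 differences in each direction among members with at least 40 reads, every member past 2-fold with an unadjusted p under 0.05, Mrps18a, Mrps18b, Mrps18c, Mrps30, Mrps36, members not over 3 reads in any library, 5 mitoribosomal proteins with other symbols, the 3 largest differences in each direction of the factor list with at least 40 reads (1 lay below 0), and Eif5a; the 5 members of the highest level per kilobase of coding sequence were added later. Coding sequences were taken from GENCODE vM21 (78 of 78 members matched) and promoters from RefSeq (69 of 78). The sequence of 1 proline run is not reported here. Alternatives were pseudocount, filter, scaling, gene class, voom, replicate block, removal of GC and length trends, subunit by symbol, and each library left out.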

Additional observations from a re-analysis of the deposited data

How the results depend on the processing

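With 513 to 1240 member reads per library, depth limited every single member, and 2 libraries a group limited every test. The 12 genes called over all genes became 0 with a pseudocount of 0.1 or a mean RPKM of at least 5. The number was also 0 with no filter on low values (genes with at least 1 read), total reads or protein-coding genes alone. It was 0 with the replicate block, 0 after removal of the GC and length trend, and 19 after that removal with the replicate block. Median centring gave 8, and voom on the recovered reads gave 76. No member was called in any of these except 1 in the fit with the trend removed and the replicate block, Mrpl52 (log2 difference 2.57, limma adjusted p = 0.0165). Replicate numbers did not pair the libraries (correlation of the replicate 1 deviations 0.07 over 9877 protein-coding genes). A mean RPKM of at least 5 left 39 members, with 30 above 0 (76.9%, beside 59.2% of protein-coding genes), 4 past 2-fold with an unadjusted p under 0.05 (beside 5.85%), 2 separated 2-fold (beside 1.78%) and a small subunit median of 0.70. Total reads gave 21 past 2-fold and 10 separated in place of 7 and 5, beside 15.9% and 6.86% of protein-coding genes in place of 5.57% and 2.10%, and medians of 0.78 for the members and for the large subunit, 0.81 for the small subunit and 0.70 for the factors. Both fits that removed the GC and length trend left 3 members separated 2-fold, beside 1.79%. The median of the members was 0.58 with a pseudocount of 0.1 and that of the factors 0.47 with voom.

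Single genes changed sign with total reads (Mrpl48 0.072, Mrps31 0.19, Mrps23 0.41, Mrps30 0.12, Mrps33 0.24, Dap3 0.47, Gadd45gip1 0.47, Tufm 0.46), with median centring (Gadd45gip1 0.015) and in both fits that removed the trend (Gadd45gip1 0.35, Tufm 0.0035). Leaving out each library in turn assumed that the lone library of a group varies like the other group. It left 0 genes called over all genes, 1 to 13 members past 2-fold with an unadjusted p under 0.05 (beside 1.72% to 10.96% of protein-coding genes), 7 to 20 separated 2-fold (beside 5.91% to 15.9%) and a small subunit median of -0.18 to 0.84. The range crossed 0 for Mrpl38 (-0.44 to 0.53), Mrpl28 (-0.10 to 1.20), Mrpl12 (-0.38 to 0.44), Mrps28 (-0.74 to 1.20), Mrps23 (-0.88 to 0.54), Mrps30 (-0.66 to 0.052), Mrps33 (-0.29 to 0.13), Dap3 (-0.48 to 0.38), Gadd45gip1 (-0.67 to 0.63), Tufm (-0.36 to 0.21) and Eif5a (-0.12 to 0.76). The cause of these changes was not tested. Of 38 named genes with a fit, the other 25 kept their sign in every alternative run.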
